A study of Mus musculus with 3 samples.

Results

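The Vmn2r genes encode the vomeronasal type 2 receptors of the mouse. All protein-coding genes of GENCODE release M21 with a symbol starting with Vmn2r on chromosomes 1 to 19 were taken, which gave 121 of the 20807 autosomal protein-coding genes. They lie on 8 chromosomes, 3, 4, 5, 6, 7, 10, 14 and 17, with 40 on the plus strand and 81 on the minus strand. Members with at most 1 Mb between neighbouring gene bodies were joined into clusters, which gave 12 clusters with 116 members and 5 genes that stood alone (Vmn2r18, Vmn2r28, Vmn2r118, Vmn2r120 and Vmn2r-ps159). Vmn2r-ps130 and Vmn2r-ps159 carry names of the kind given to pseudogenes, but the annotation lists both as protein coding. The data were the CTCF peaks of 1 ChIP-seq library from LSK cells of adult C57BL6 mice. LSK cells are bone marrow cells that lack the markers of mature blood lineages and carry Sca1 and cKit, a population rich in blood stem and early progenitor cells. The gate removed cells with CD4, CD8, IL7Ra, CD11b, Ly6g, CD45R or Ter119. The labels give no treatment and no genotype beyond the strain, so no contrast between conditions could be made, and with 1 library no replicate error exists. Expression was not measured in these data, so neither the cell type nor whether the genes are silent in LSK cells could be checked.

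Type 2 vomeronasal receptors are class C G protein-coupled receptors with a large extracellular domain that binds peptides and proteins such as exocrine gland peptides and major urinary proteins. They act in sensory neurons of the basal layer of the vomeronasal organ, where they couple to the G protein subunit Gnao1 and the channel Trpc2. The proteins of Vmn2r1 to Vmn2r7 are co-expressed broadly with other receptors of the family, whereas most other members are each used by a small subset of neurons. The genes arose by repeated local duplication, so neighbours share long stretches of sequence. CTCF is a zinc finger protein that binds a core DNA motif. It halts cohesin as cohesin extrudes chromatin loops, in a manner that depends on the orientation of the motif, and is best known at borders of chromatin domains.

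CTCF peaks were scarce near the starts of the receptor genes. No member had a peak within 1 kb of its start (0 of 121 genes, 95% Wilson interval up to 3.08%), against 8.92% of all autosomal coding genes. Within 10 kb, 3 members had a peak (2.48%, interval 0.847 to 7.04%), against 30.4% of all coding genes. Within 50 kb, 15 members had one (12.4%, interval 7.66 to 19.4%), against 69.7%, and within 100 kb 21 members did (17.4%), against 82.7%. The intervals cover counting error alone, and neighbouring members share peaks, so they treat the genes as independent and are too narrow. The median distance from a member's start to the nearest peak was 269 kb, against 22.8 kb over all coding genes. The distances ran from 1917 bp at Vmn2r7 to 1877641 bp at Vmn2r37. A distance over 500 kb was found for 35 members (28.9%, against 3.11% of coding genes) and a distance over 1 Mb for 14 members (11.6%, against 0.562%).

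**Figure D1:**
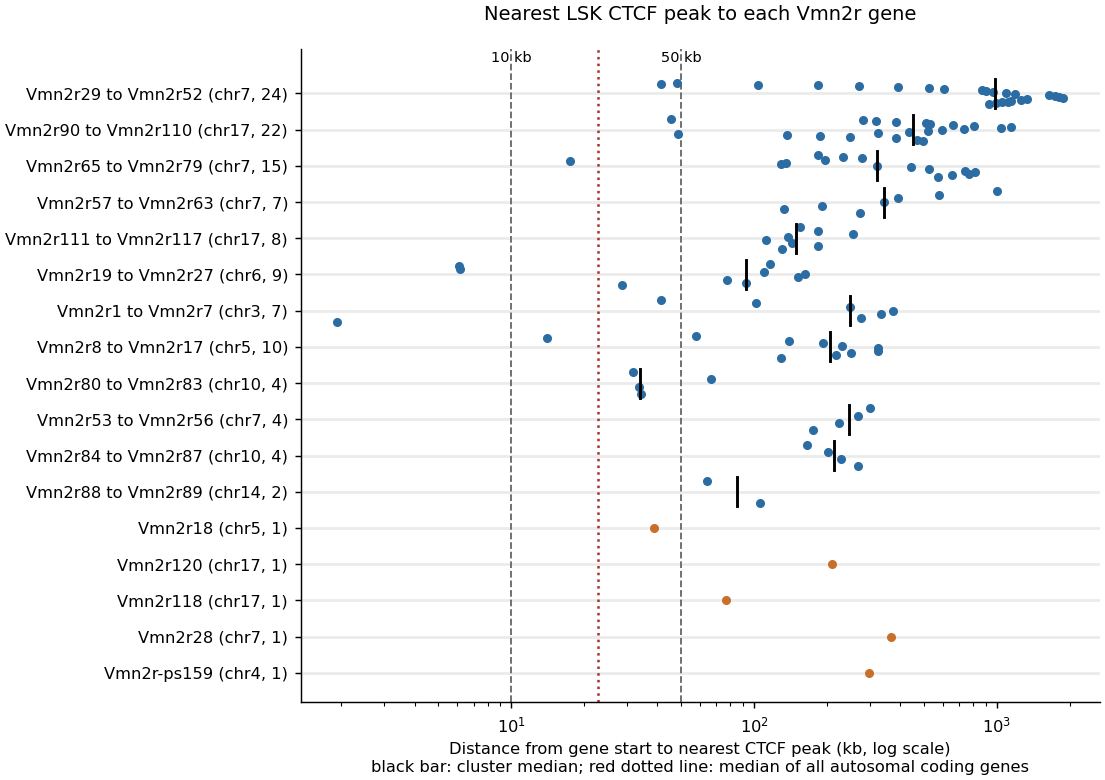
Each point is 1 Vmn2r gene, placed by the distance from its start to the nearest CTCF peak (kb, log scale), with 1 row for each cluster (blue) or single gene (orange) and the chromosome and number of genes in parentheses. Black bars are cluster medians, dashed lines mark 10 and 50 kb, and most points lie to the right of the dotted line at the 22.8 kb median of all coding genes.

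The 3 genes with a peak within 10 kb were Vmn2r7, Vmn2r20 and Vmn2r21. At Vmn2r7 the peak lay 1917 bp downstream of the start, in an intron of the gene itself, at a fold enrichment of 6.96 over background (−log10 p-value 7.258, chr3:64842113-64842848, mm10). This peak was among the weaker ones, since the median fold enrichment of all autosomal peaks was 10.12 and their median −log10 p-value was 12.722. At Vmn2r20 the peak lay 6101 bp upstream at a fold enrichment of 12.4 (−log10 p-value 16.427, chr6:123424217-123424945). At Vmn2r21 it lay 6158 bp upstream at a fold enrichment of 13.38 (−log10 p-value 16.098, chr6:123539564-123540353). The pair upstream of Vmn2r20 and Vmn2r21 were both above the median strength. Each of them lay over an annotated small nucleolar RNA, Gm22833 and Gm22722 respectively. Part of the Vmn2r20 peak also lay in an exon of Vmn2r-ps31, annotated as an unprocessed pseudogene.

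The peaks at Vmn2r20 and Vmn2r21 held the same sequence. The sequences are shown because they are the only intact CTCF core motifs in a peak that lie within 10 kb of any member, with the 12 bases of the core motif in capitals, written 5′ to 3′ on the strand that carries the motif (the minus strand of mm10 for both, which is also the strand of the genes).

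Vmn2r20 upstream peak, chr6:123424615-123424654: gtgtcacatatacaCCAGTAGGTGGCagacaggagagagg
Vmn2r21 upstream peak, chr6:123539960-123539999: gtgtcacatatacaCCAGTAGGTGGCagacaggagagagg

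All 729 bases of the Vmn2r20 peak were found again at the Vmn2r21 peak with 0 differences, and 100% of the 32-base words in either peak occur more than once in the genome. Without peaks of mostly repeated words, Vmn2r7 was the 1 member left within 10 kb. Reads from either copy of the Vmn2r20 peak cannot be told apart in these bases, and the methods state that reads with several mapping positions were kept. The peak in the intron of Vmn2r7 was of another kind, with 8.09% of its words repeated and no core motif even with 1 mismatch allowed. A search for the same 40 bases in the 20 kb before every member, with up to 6 edits allowed, found them only before Vmn2r20 and Vmn2r21.

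Just outside the 10 kb limit lay Vmn2r9 at 14001 bp (fold enrichment 12.07), Vmn2r69 at 17481 bp (6.53), Vmn2r27 at 28550 bp (8.81) and Vmn2r80 at 31786 bp (6.53). The other members within 50 kb were Vmn2r82 at 33612 bp, Vmn2r83 at 34122 bp, Vmn2r18 at 38781 bp, Vmn2r1 at 41328 bp, Vmn2r30 at 41529 bp, Vmn2r90 at 45414 bp, Vmn2r29 at 48044 bp and Vmn2r104 at 48704 bp. The first members past the 50 kb limit were Vmn2r8 at 57752 bp, Vmn2r88 at 64308 bp, Vmn2r81 at 66510 bp and Vmn2r118 at 77009 bp. Of the 15 genes within 50 kb, the nearest peak was upstream of the start for 11 and downstream for 4. In all, 17 peaks lay within 50 kb of a member, with a median fold enrichment of 8.81, and 11 of them were below the autosomal median of 10.12.

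The clusters together spanned 13.5 Mb and held 15 peaks, or 1.11 peaks per Mb (95% Poisson interval 0.624 to 1.84). The autosomes as a whole held 18697 peaks, or 7.59 per Mb, so the density inside the clusters was 14.7% of the autosomal one (interval 8.21 to 24.2%). It was 23.3% when all peaks were set against only the bases that start a 32-base word found once. It was 57.0% when members up to 3 Mb apart were joined, which takes in long stretches between the clusters. At the autosomal density the same length would hold 102 peaks. In the 500 kb on either side of each cluster there were 126 peaks at 10.8 per Mb (interval 8.97 to 12.8), which is 142% of the autosomal density. In the first 100 kb outside it was 5.0 per Mb (interval 2.58 to 8.73), so the low density did not extend over the 500 kb flanks as a whole. The 15 peaks inside had fold enrichments from 6.53 to 13.38 with a median of 9.46, and 8 of them lay below the autosomal median of 10.12. No peaks lay in 3 clusters, 1 peak in 5, 2 peaks in 2 and 3 peaks in 2.

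**Figure D2:**
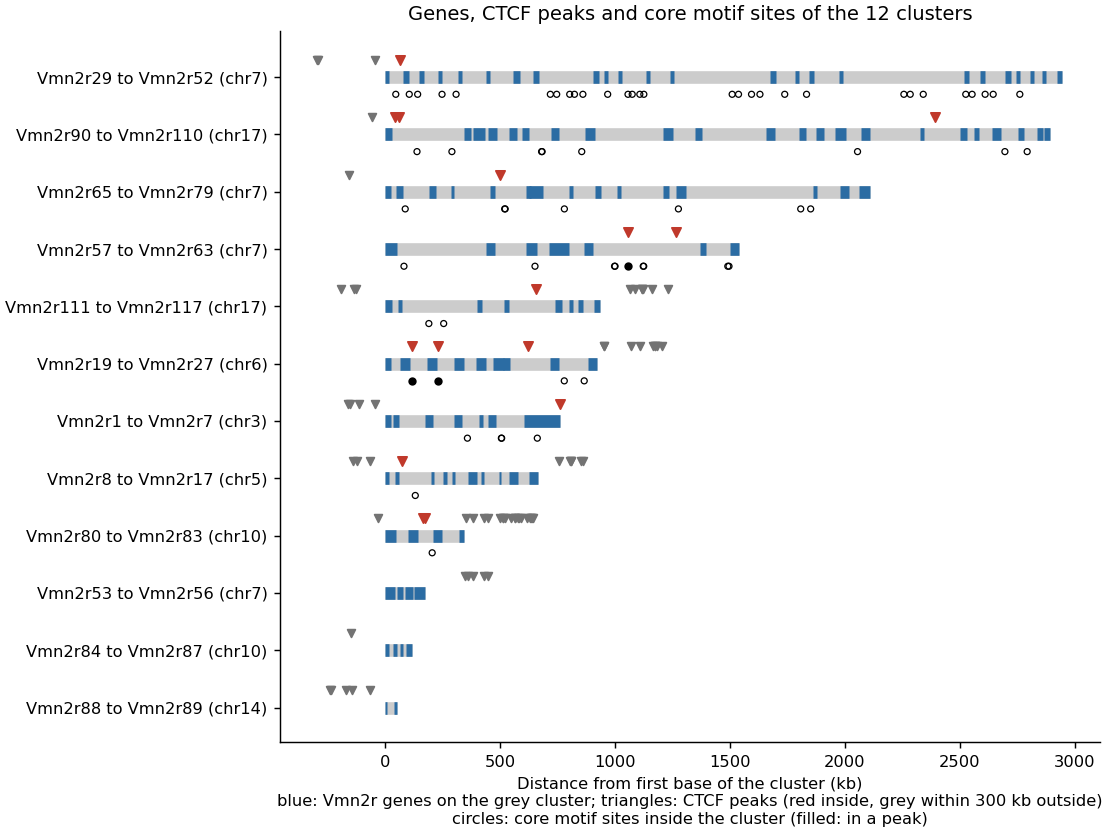
Map of the 12 clusters, drawn to a common scale in kb from the first base of each cluster, with Vmn2r genes in blue, CTCF peaks as triangles (red inside, grey within 300 kb outside) and core motif sites inside the cluster as circles (filled where they lie in a peak). The 15 red triangles are few beside the genes, and 3 of the 65 circles are filled.

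The cluster from Vmn2r29 to Vmn2r52 on chromosome 7 had the lowest peak density of those that held a peak. It holds 24 members, all on the minus strand, over 2.95 Mb, and had 1 peak at 0.34 per Mb (interval 0.0086 to 1.89), which is 4.47% of the autosomal density. That peak lay in an exon of Clcn4, a gene for a chloride and proton exchanger that sits between the receptors (chr7:7295372-7296080, fold enrichment 7.18). It was the nearest peak for 16 of the 24 members, of which Vmn2r30 and Vmn2r29 lay within 50 kb. The median distance over the 24 members was 980 kb, and Vmn2r37, at 1877641 bp, was farther from a peak than any other member of the family. Outside the cluster the nearest peaks were 42705 bp beyond Vmn2r29 (fold enrichment 5.87, past the zinc finger gene Zfp772) and 924721 bp beyond Vmn2r52 (4.24, past the vomeronasal type 1 receptor gene Vmn1r66). In this cluster 91.3% of 32-base words occur more than once in the genome, against 15.4% of words over the autosomes. How far repeated sequence lowered the number of peaks called here was not tested.

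On the same chromosome, the cluster from Vmn2r53 to Vmn2r56 (172 kb, 4 members) held no peaks. Its nearest outside peak on the left was the one beyond Vmn2r52, 1461085 bp away and past 2900092C05Rik, and on the right a weak peak 174215 bp beyond Vmn2r56 (fold enrichment 5.55, past Zscan18). Within it Vmn2r56 was nearest to a peak, and Vmn2r53, at 300431 bp, was farthest. The cluster from Vmn2r57 to Vmn2r63 (1540 kb, 7 members among 13 other coding genes, many of them zinc finger genes) held 2 peaks. Neither was near a receptor, since the nearest member was Vmn2r62 at 132831 bp and the farthest Vmn2r57 at 1001779 bp, while 1 peak lay 2355 bp from the start of 4933421I07Rik and the other in an exon of Zfp975. Beyond its edges the next peaks were 1121931 bp from Vmn2r57 (past AI987944) and 349185 bp from Vmn2r63 (past Gm9268, fold enrichment 17.62). The cluster from Vmn2r65 to Vmn2r79 (2110 kb, 15 members) also holds 15 olfactory receptor genes and Folh1. It had 1 peak, the one 17481 bp upstream of Vmn2r69, and 88% of that peak was masked as repeat in the genome sequence. Vmn2r76, at 812240 bp, was farthest from a peak. The next peaks outside were 155527 bp from Vmn2r65 (past Olfr290, fold enrichment 15.01) and 521423 bp from Vmn2r79 (past Nox4, fold enrichment 6.85).

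On chromosome 17 the cluster from Vmn2r90 to Vmn2r110 spans 2890 kb with 22 members, and the formyl peptide receptor genes Fpr1, Fpr2, Fpr3, Fpr-rs4, Fpr-rs6 and Fpr-rs7 lie among them. Several Fpr-rs genes are themselves used in vomeronasal neurons. The cluster held 3 peaks. A pair of them lay 45414 bp and 62603 bp from Vmn2r90 (fold enrichments 11.75 and 10.12), and the remaining one lay 48704 bp from Vmn2r104 and 16331 bp from Fpr-rs7 (8.51). The farthest member was Vmn2r97 at 1147206 bp. Beyond Vmn2r90 the next peak was strong (fold enrichment 15.99 and −log10 p-value 27.187) and lay 57406 bp out, before the aminopeptidase gene Lnpep. Beyond Vmn2r110 the next one lay 544529 bp out, past Fpr-rs3.

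The second chromosome 17 cluster, Vmn2r111 to Vmn2r117 (935 kb, 8 members), includes Vmn2r116, a receptor known for its response to the male tear peptide Esp1. It held 1 peak (fold enrichment 9.46), 112232 bp from Vmn2r114 and 6445 bp from the start of Zfp40, and Vmn2r116 was 184299 bp from it. Vmn2r113, at 256713 bp, was farthest from a peak. The next peaks outside lay 126346 bp from Vmn2r111 (past Zfp946, fold enrichment 16.31) and 130615 bp from Vmn2r117 (past Zfp213, in an exon of Zscan10, 11.09).

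The cluster from Vmn2r19 to Vmn2r27 on chromosome 6 (924 kb, 9 members) had 3 peaks, those at Vmn2r20 and Vmn2r21 and another 77289 bp from Vmn2r25 (fold enrichment 10.44 and −log10 p-value 22.797). The density of this cluster, 3.25 peaks per Mb, had an interval of 0.67 to 9.49 that includes the autosomal density. Vmn2r23, at 162317 bp, was farthest from a peak. A peak 28550 bp beyond Vmn2r27 (fold enrichment 8.81) lay before Cd163, the haemoglobin scavenger receptor of macrophages, and on the other side the next peak was 415388 bp beyond Vmn2r19, past Clec4e. The cluster from Vmn2r1 to Vmn2r7 on chromosome 3 (763 kb, 7 members) is the group with broad co-expression. It had only the intronic peak of Vmn2r7 inside, and Vmn2r4, at 375149 bp, was farthest. Outside, the next peaks lay 41328 bp beyond Vmn2r1, before Gmps, and 472910 bp beyond Vmn2r7, in an intron of the potassium channel subunit gene Kcnab1.

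On chromosome 5 the cluster from Vmn2r8 to Vmn2r17 (667 kb, 10 members) had the peak near Vmn2r9 and none other inside, and Vmn2r13, at 324875 bp, was farthest. Its density of 1.5 peaks per Mb had an interval of 0.038 to 8.36 that includes the autosomal density. The outer peaks of the cluster lay 64324 bp beyond Vmn2r8 (past Rnf212) and 90128 bp beyond Vmn2r17 (before Crlf2), both with a fold enrichment of 12.07. On chromosome 10 the cluster from Vmn2r80 to Vmn2r83 (345 kb, 4 members) had 2 peaks between Vmn2r81 and Vmn2r82 (fold enrichments 8.16 and 9.46), or 5.8 per Mb with an interval of 0.702 to 21 that includes the autosomal density. Its median distance of 33.9 kb was the shortest of any cluster, and Vmn2r81, at 66510 bp, was farthest. The peaks outside lay 31786 bp beyond Vmn2r80, before 2610008E11Rik, and 9268 bp beyond Vmn2r83, before Plpp2. The clusters from Vmn2r84 to Vmn2r87 (119 kb) on chromosome 10 and from Vmn2r88 to Vmn2r89 (53.4 kb) on chromosome 14 held no peaks. At the autosomal density they would hold 0.907 and 0.405 peaks, so no shortage was detectable in clusters this short. The nearest member to a peak was Vmn2r84 at 165545 bp in the first and Vmn2r88 at 64308 bp in the second, and the farthest were Vmn2r87 at 268609 bp and Vmn2r89 at 105345 bp. The peaks next to Vmn2r84 and Vmn2r88 lay past Tespa1 and before Rnase2a, and the next peak beyond Vmn2r89, 307082 bp away, lay past Gm5622.

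Of the genes that stood alone, Vmn2r18 was 38781 bp from a peak in an intron of Rfc3, a clamp loader subunit gene, and a second peak lay at the start of Rfc3. Vmn2r118 was 77009 bp from a peak in an intron of Pot1b, while on its other side, past St6gal2, the next peak was 2035721 bp away. Vmn2r120 was 209175 bp, Vmn2r-ps159 296847 bp and Vmn2r28 367659 bp from the nearest peak. The neighbouring coding genes on the side of those nearest peaks were Adgre1 for Vmn2r120, Samd11 for Vmn2r-ps159 and Vmn1r59 for Vmn2r28.

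The edges of the clusters had no sharp accumulation of peaks. Of the 24 edges, 23 had a peak farther out on the chromosome, and no peak was listed between Vmn2r87 and the end of chromosome 10. The nearest outside peak lay within 10 kb at 1 edge (Vmn2r83), within 50 kb at 5 edges (Vmn2r83, Vmn2r27, Vmn2r80, Vmn2r1 and Vmn2r29) and within 100 kb at 9, with a median of 149 kb over the 23 edges. At 7 edges the peak came before the next coding gene outside. In 50 kb bins, the density was 1.73 peaks per Mb (interval 0.21 to 6.26) just inside the edge, 5.83 (2.35 to 12) just outside it, 4.17 (1.35 to 9.72) at 50 to 100 kb and 10.8 (5.77 to 18.5) at 100 to 150 kb. From 100 to 500 kb outside, the bins ran from 8.7 to 15 peaks per Mb. Adjacent bins overlapped within their intervals, whereas the bin at 150 to 200 kb (interval 8.91 to 23.8), the densest one outside, lay above the one just inside. The bins at 300 to 350, 350 to 400 and 450 to 500 kb also lay above it. The other bins from 100 kb outwards overlapped it.

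**Figure D3:**
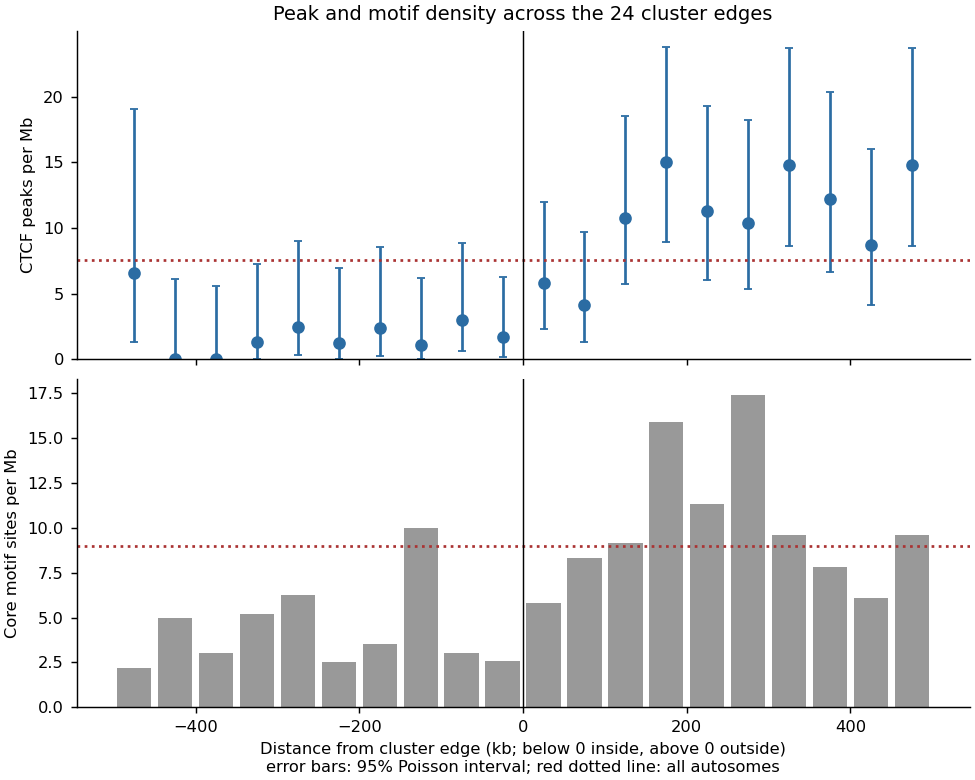
CTCF peaks per Mb with 95% Poisson intervals (top) and core motif sites per Mb (bottom) in 50 kb bins of distance from the 24 cluster edges, with the inside at negative and the outside at positive distances. The peak density was 1.73 per Mb in the last bin inside and 8.7 to 15 per Mb in the 8 bins from 100 kb outside onwards. Dotted lines are the autosomal values of 7.59 peaks and 8.96 sites per Mb.

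The core motif could be found in most peaks outside the clusters that bordered them. Of the 22 distinct peaks nearest to the 23 edges, 4 held an intact core motif and 19 one with at most 1 mismatch. Over all autosomal peaks the shares were 35.7% and 83.6%. The motif pointed towards the genes at 7 of the 19 peaks and away from them at 12. The intact motifs next to Vmn2r1 and Vmn2r117 pointed towards the genes, and those next to Vmn2r80 and Vmn2r65 pointed away. The intact sites of the edge peaks at Vmn2r1 and Vmn2r80, both within 50 kb, are shown with the core in capitals.

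Outside Vmn2r1, chr3:64039903-64039914 and 14 bases on either side, plus strand: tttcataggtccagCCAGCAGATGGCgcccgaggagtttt
Outside Vmn2r80, chr10:79116754-79116765 and 14 bases on either side, minus strand: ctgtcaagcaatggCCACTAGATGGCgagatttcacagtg

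The motif itself was less common in the clusters, and the sites that were present seldom lay in a peak. The 12-base core motif, searched by its consensus on both strands, had 65 intact sites inside the clusters, or 4.83 per Mb, which is 53.9% of the autosomal density of 8.96 per Mb. Of these 65 sites, 3 lay in a peak (4.62%, Wilson interval 1.58 to 12.7%). Over the autosomes 6857 of 22076 sites did (31.1%), and in the 500 kb flanks of the clusters 37 of 118 did (31.4%, interval 23.7 to 40.2%). Among cluster sites outside masked repeats, 3 of 46 lay in a peak (6.52%, interval 2.24 to 17.5%), against 32.8% over the autosomes. Among sites whose surrounding 32 bases occur once in the genome, 1 of 22 did (4.55%, interval 0.807 to 21.8%), against 32.1%, and among sites with repeated surroundings 2 of 43 did (4.65%, interval 1.28 to 15.5%), against 14.8%. The low share thus held for sites of both kinds, although for the repeated ones the interval reached the autosomal value. Surroundings were repeated at 43 of the 65 sites, and several sites are copies of the same sequence. Intervals that include such copies treat them as independent and are too narrow. Starts of members were also far from the motif, with a median of 97 kb to the nearest site against 25.6 kb over coding genes, and 9 members (7.44%) had a site within 10 kb, against 26.2%.

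**Figure D4:**
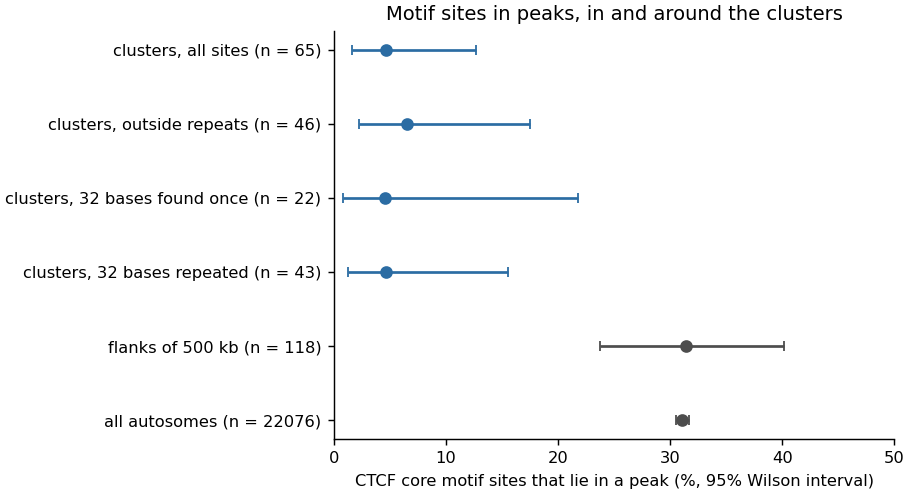
Share of intact CTCF core motif sites that lie in a peak (%, points) with 95% Wilson intervals (bars), for sites inside the 12 clusters, for subsets of them, for the 500 kb flanks and for all autosomes, with the number of sites in parentheses. The clusters lie at 4.55 to 6.52%, below the flanks at 31.4% and the autosomes at 31.1%, which are shares over all sites. For sites with repeated surroundings the autosomal share, not drawn, was 14.8%, inside the cluster interval of 1.28 to 15.5%. Intervals that include repeated copies of a site treat them as independent and are too narrow.

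The largest number of motif sites was in the Vmn2r29 to Vmn2r52 cluster, which had 29 of the 65 sites and 0 of them in a peak (interval up to 11.7%). Its motif density of 9.85 per Mb was 110% of the autosomal one, while its peak density was 4.47%. Most of the 29 sites had repeated surroundings, so this motif density counts copies of the same sequences and the interval is too narrow. Over the autosomes, 14.8% of sites with repeated surroundings lay in a peak. Part of the 29 sites belong to 1 duplicated element at the start of the genes. An element of 40 bases, which holds the core motif in Vmn2r42, was sought at the start of every member. With at most 6 edits it was found in 22 of the 24 members of this cluster and in no other member. It lay 367 to 492 bp downstream of the start, outside the annotated exons. Not every copy held the motif. The motif was intact in 5 copies (Vmn2r30, Vmn2r32, Vmn2r42, Vmn2r47 and Vmn2r49) and had 1 mismatch in 4 (Vmn2r34, Vmn2r37, Vmn2r45 and Vmn2r51). None of the 22 copies lay in a peak, which follows from the absence of any peak within 1 kb of a member's start. The copies below show the intact motif, a copy with 1 mismatch and a copy without the motif, in the sense of the genes, which is the minus strand, with the motif in capitals where it is found with at most 1 mismatch.

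Vmn2r42, intact, chr7:8199791-8199830: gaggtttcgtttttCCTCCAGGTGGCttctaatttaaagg
Vmn2r47, intact, chr7:9840919-9840958: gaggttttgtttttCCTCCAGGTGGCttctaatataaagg
Vmn2r34, 1 mismatch, chr7:7688985-7689024: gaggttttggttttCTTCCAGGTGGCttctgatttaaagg
Vmn2r41, no motif, chr7:8161138-8161177: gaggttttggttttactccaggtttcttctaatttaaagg

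Among the 15 peaks inside the clusters, fewer held the motif and more were rich in repeats than among all autosomal peaks. Of the 15, 3 held an intact motif (at Vmn2r20, at Vmn2r21 and near 4933421I07Rik) and 8 one with at most 1 mismatch, against 35.7% and 83.6% of autosomal peaks. These counts are small, the Vmn2r20 and Vmn2r21 motifs are identical copies, and 4 of the 22 edge peaks outside held an intact motif. In 7 of the 15, over 50% of the 32-base words were repeated in the genome, against 2.57% of autosomal peaks. In 4, over 50% of the bases were masked as repeat, against 6.03% of autosomal peaks. The cluster sequence itself was 52.5% masked with 47.9% repeated words, against medians of 39.2% and 42.9% over the 15 peaks. Whether the peaks differ from the sequence around them was not tested. The peaks whose nearest members were Vmn2r25, Vmn2r62 and Vmn2r104, on 3 different chromosomes, carried nearly the same sequence around a motif with 1 mismatch. These peaks are labelled by those members, although they lay 77289, 132831 and 48704 bp from them, the Vmn2r62 one in an exon of Zfp975. They are shown because nearly the same element lies in 3 of the 15 inside peaks.

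Vmn2r25 peak, chr6:123931162-123931173 and 14 bases on either side, plus strand: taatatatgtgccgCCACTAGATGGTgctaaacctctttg
Vmn2r62 peak, chr7:42660342-42660353 and 14 bases on either side, minus strand: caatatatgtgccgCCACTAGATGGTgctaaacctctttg
Vmn2r104 peak, chr17:20097521-20097532 and 14 bases on either side, plus strand: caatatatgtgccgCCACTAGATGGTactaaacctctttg

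The sequences of the Vmn2r25 and Vmn2r104 peaks differ at 2 of the 40 bases, and that of the Vmn2r62 peak differs from each of them at 1. The 32 bases around the motif at Vmn2r25 and at Vmn2r62 have 29 copies in the genome. Of the 24 autosomal copies 22 lay in a peak. The element was picked because it lay in peaks, and reads from its identical copies cannot be told apart, so this count is a description of these copies alone. The remaining intact motif in a peak, near 4933421I07Rik, has surroundings that occur once.

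Near 4933421I07Rik, chr7:42450810-42450821 and 14 bases on either side, plus strand: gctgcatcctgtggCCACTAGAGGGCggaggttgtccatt

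Long stretches without a peak held most of the family. Between successive autosomal peaks there were 18678 stretches with a median length of 42.8 kb, and 350 of them were over 1 Mb. Of the 121 members, 66 (54.5%) started in 9 of these 350 long stretches, against 9.17% of all coding gene starts. The longest one with members, chr7:7296081-11101293, ran for 3.81 Mb, ranked 21 among all stretches, and held 23 members from Vmn2r30 to Vmn2r52, 6 Vmn1r genes and 33 intact motif sites. Unknown bases made up 1.31% of it. The next, on chromosome 17, ran for 2.33 Mb from the peak near Vmn2r90 to the one near Vmn2r104, ranked 95, and held 15 members from Vmn2r124 to Vmn2r104 but only 6 motif sites.

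The clusters also differed from the autosomes in their sequence. Their GC content was 38.1% against 41.9%, 52.5% of their bases were masked as repeat against 33.5%, and 47.9% of their 32-base words were repeated against 15.4%. In the 500 kb flanks these were 41.8%, 41.6% and 26%. Per Mb of bases outside repeats, with every peak still counted, the clusters held 2.36 peaks against 11.7 over the autosomes. The promoters of the members were poor in CpG. For 114 of the 121 members RefSeq promoters of GRCm38.p6 could be matched, which run from 250 bases before to 50 bases after the start. Their median GC content was 38.0% against 57.3% over 15687 coding genes, and they had a median of 1 CpG dinucleotide against 15. The trait was not particular to this family. Promoters of 183 Vmn1r and 925 Olfr genes had a median GC content of 36.0% and 35.0%, each with a median of 1 CpG. The core motif was in 1 of the 114 member promoters (0.877%), against 1.72% of all promoters, a count too small to tell these shares apart. It was in 0 of the 183 Vmn1r and 1 of the 925 Olfr promoters.

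Other families of chemosensory receptors had a like shortage of peaks. Of the 208 Vmn1r genes, which encode the vomeronasal type 1 receptors of apical neurons, 3 had a peak within 10 kb (1.44%, interval 0.492 to 4.15%) and 17 within 50 kb (8.17%), with a median distance of 284 kb. The 3 were Vmn1r3, Vmn1r21 and Vmn1r234, with fold enrichments of 11.09, 8.48 and 7.5. Of the 1128 Olfr genes, which encode the olfactory receptors of the nose, 49 had a peak within 10 kb (4.34%, interval 3.3 to 5.7%) and 241 within 50 kb (21.4%, interval 19.1 to 23.9%), with a median distance of 176 kb. The strongest peaks within 10 kb of an Olfr gene were at Olfr649 (fold enrichment 21.54), Olfr323 (20.56), Olfr372 and Olfr412 (17.95 each), Olfr655 (17.29) and Olfr1066 (15.99), all above the 13.38 at Vmn2r21. The interval of the 50 kb share of Vmn2r genes overlapped those of Vmn1r (5.17 to 12.7%) and Olfr genes. Genes of a family share peaks, and differences between the families were not tested. The clustered protocadherins, adhesion proteins of neurons whose promoters are known CTCF targets, lie on 1 chromosome, and a peak lay within 10 kb of 14 of the 57 (24.6%) and within 50 kb of 35 (61.4%). These genes share 7 distinct peaks within 10 kb and 8 within 50 kb, so the shares rest on few peaks. Their strongest peaks within 10 kb were at Pcdhga9 and Pcdhgb6 (9.46 each), Pcdhga10, Pcdhga11 and Pcdhgb7 (7.83 each) and Pcdhb15 (7.5).

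**Figure D5:**
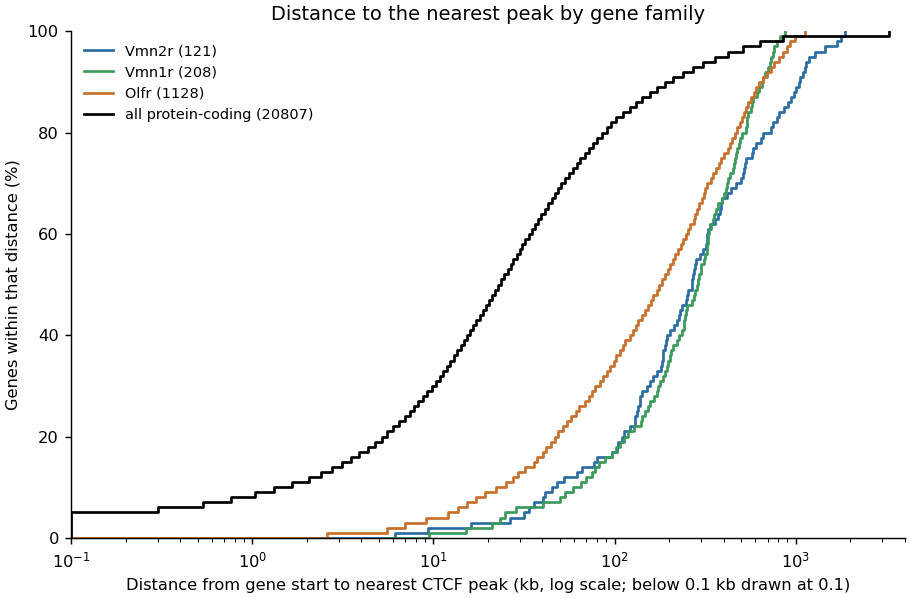
Cumulative share of genes (%) against the distance from gene start to the nearest CTCF peak (kb, log scale), for the Vmn2r, Vmn1r and Olfr families and for all autosomal protein-coding genes. The curves of the 3 receptor families run to the right of all coding genes, with medians of 269, 284 and 176 kb against 22.8 kb.

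The other genes of vomeronasal signalling formed a list of 41, including channels, G proteins, H2-M proteins, formyl peptide receptors, transcription factors and ligands. Peaks lay near their starts at shares close to those of all coding genes. A peak lay within 10 kb of 12 of them (29.3%, against 30.4%) and within 50 kb of 31 (75.6%, against 69.7%), with a median distance of 16331 bp. The strongest peaks within 10 kb were those of the G protein genes Gnb1 (fold enrichment 17.29), Gnai2 (15.99) and Gng8 (13.34), of Stoml3 (15.34), of the olfactory marker gene Omp (11.42) and of the transcription factor gene Tfap2e (10.77). Trpc2, the transduction channel, had one 4036 bp from its start (7.83), whereas Gnao1, the partner of the type 2 receptors, was 122850 bp from the nearest. The H2-M10 genes, whose products are found with type 2 receptors in basal neurons, lay between 8032 bp (H2-M10.5) and 43330 bp (H2-M10.4) from a peak. H2-M1, H2-M9 and H2-M11 of the same list lay farther from a peak, at 53631, 83184 and 128071 bp. Fpr-rs3 was 516075 bp and Esp1 96573 bp from a peak. Fpr3, Fpr-rs4, Fpr-rs6 and Fpr-rs7 of the list lie inside the Vmn2r90 to Vmn2r110 cluster. Their distances to a peak were 120758, 254639, 85202 and 16331 bp.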

How the data were processed

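CTCF ChIP-seq of 1 LSK library was used, and the LSK and MEP input libraries were not analysed here. The authors mapped reads to mm10 with Bowtie, keeping multiply mapping reads, and called peaks with MACS. The submitters' processing notes name bcl2fastq and Bowtie 1.0.0, whereas the methods name an earlier Bowtie release, and which one made these files was not settled. No source used here gives the MACS settings or control. The deposited list gives a fold enrichment (a linear ratio), a −log10 p-value (lowest 5.001) and a false discovery rate score, which was not used. It gives no read counts, so the depth behind a peak is unknown.

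Starts of GENCODE M21 genes were compared with peak intervals on GRCm38.p6, the assembly of mm10. Repeated words were 32-base words found more than once on the autosomes, X and Y, on both strands. For single values over the autosomes every 1000th word was read. The core motif was matched exactly unless a mismatch is stated. Intervals are Wilson or exact Poisson at 95%. No significance test was run, since 1 library leaves no replicate error. The motif, word, distance and cluster steps were tested on simulated data. Python 3.11.15, numpy 2.4.6, pandas 2.3.3, scipy 1.17.1, statsmodels 0.14.6 and numba 0.67.0 were used.

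The members and lists were chosen with earlier results of these data known. Named genes were members within 10 kb of a peak, those at cluster edges, up to 4 on each side of the 10 and 50 kb limits, the nearest and farthest of each cluster, single genes, the neighbouring coding genes, and up to 6 genes with the strongest peak within 10 kb in each comparison list. Vmn2r116, Gnao1, Trpc2, H2-M1, H2-M9, H2-M10.4, H2-M10.5, H2-M11, Fpr3, Fpr-rs3, Fpr-rs4, Fpr-rs6, Fpr-rs7 and Esp1 were named after their values were seen. Alternatives covered peak strength, distance, gene starts, cluster gap, repeats and motif mismatches.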

Additional observations from a re-analysis of the deposited data

How the results depend on the processing

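Of 35 alternatives, 21 left the value within 1.5 times the main count or within its 95% interval and 14 moved it. Within 10 kb, the 3 members became 2 with peaks of a −log10 p-value or a fold enrichment of at least 10, 0 within 1 kb and 5 within 25 kb. With only peaks in which at most 50% of words are repeated, an alternative chosen after seeing the data, 1 member was left, Vmn2r7, and 8 of the 15 peaks inside clusters. Within 50 kb, the 15 members became 9 with a −log10 p-value of at least 10 and 6 with a fold enrichment of at least 10. These limits left 9 and 7 peaks inside the clusters, and fewer peaks are kept by construction. With a gap of 3 Mb, which joins distant genes into 11 clusters, 93 peaks lay inside at 57.0% of the autosomal density. Edges with a peak within 50 kb fell from 5 to 2 with a −log10 p-value of at least 10, and were 1 within 10 kb and 9 within 100 kb. The share of motif sites in a peak was 0.52% (8 of 1539) with 1 mismatch allowed, against 4.69% over the autosomes. The density inside clusters was 13.9% of the autosomal one with the stricter p-value, 14.7% with a gap of 250 kb, 20.1% outside repeats and, chosen after seeing the data, 23.3% over bases that start a word found once. The values outside repeats and over words found once restrict the length alone and still count every peak.

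The list holds 1 library with no replicate, and no read counts, so a missing peak shows only that none was called. Sequence that occurs several times cannot be assigned to 1 copy from these data. Clusters of under 0.2 Mb are too short for a shortage to be seen. The intervals for Vmn2r80 to Vmn2r83, Vmn2r8 to Vmn2r17 and Vmn2r19 to Vmn2r27 also included the autosomal density. No shortage was thus detectable in any of these clusters alone. No paired analysis was possible because the series has 1 ChIP library and no second group of peaks.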

Other observations

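Of the 647 autosomal coding genes that lay over 500 kb from a peak, 195 were Olfr genes, 44 Vmn1r genes and 35 Vmn2r genes. The 7 peaks inside clusters in which over 50% of words are repeated include both peaks with an intact motif near receptor starts, at Vmn2r20 and Vmn2r21.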
